A study of Mus musculus with 16 samples.

Results

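The genes described here are the mouse Wnt, Fgf, Bmp and Gdf genes, chosen by name from the deposited tables: every gene whose symbol was Wnt, Fgf, Bmp or Gdf followed by a number and, for Wnt and Bmp, an optional a or b. The rule found 62 genes, 19 Wnt, 22 Fgf, 11 Bmp and 10 Gdf genes, of 23420 genes in the RNA tables and 22269 gene intervals in the H3K27me3 tables, and all 62 were in both. Most encode secreted ligands, but the names also cover Bmp1, a metalloprotease that trims procollagen and frees Bmp proteins from their inhibitors, and Fgf11, Fgf12, Fgf13 and Fgf14, intracellular proteins that bind sodium channels.

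The study sequenced RNA and H3K27me3 ChIP DNA from CD4 T cells in which the histone methyltransferase Ezh2 had been deleted, and from controls. Ezh2KO cells came from mice labelled Ezh2 fl/fl.CD4Cre (genotype Ezh2-/-), which carry floxed Ezh2 and a Cre recombinase expressed from Cd4 control elements in T lineage cells. Control cells, called Ezh2fl/fl here, came from mice labelled Ezh2 fl/fl (genotype wild type), which carry the same floxed alleles without Cre. The ages and background strain of the mice were not given in the sources used here. All cells were naive CD4+ T cells purified by flow sorting and stimulated with 5 ug/ml of plate-bound anti-CD3 and 1 ug/ml of soluble anti-CD28. Th0 cultures received 50 U of human IL-2. Cultures for induced regulatory T cells (iTreg) received IL-2 at 200 U/ml and human TGF-beta1 at 5 ng/ml. By their titles the iTreg RNA libraries were from day 5 and the Th0 ones from day 4, whereas the protocol has all cells harvested on day 4. RNA came from 3 libraries for each genotype and culture, 12 in all, and H3K27me3 from 2 libraries per genotype in Th0 cells, 4 in all, with 10 ug of antibody per ChIP. The design text calls the libraries of a group biological replicates, and they are named here by the number in their titles.

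Wnt proteins are lipid-modified ligands that bind Frizzled receptors with Lrp coreceptors and, in the canonical branch, stabilise beta-catenin, which acts with Tcf and Lef factors on target genes. Most Fgf proteins bind receptor tyrosine kinases, and Bmp and Gdf proteins bind pairs of serine/threonine kinase receptors that phosphorylate Smad factors. These ligands pattern the embryo, and their genes are textbook targets of Polycomb repressive complex 2, the complex in which Ezh2 trimethylates lysine 27 of histone H3 (H3K27me3). The mark lies on silent developmental genes, often over promoters rich in CG pairs. In CD4 T cells the best known link to these pathways is Tcf7 and Lef1, the nuclear partners of beta-catenin, which T cells express for their own identity and memory programmes.

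RNA libraries held 21910114 to 28443427 counted reads and ChIP libraries 11124172 to 15103496. The 62 genes took 0.0038 to 0.0065% of the RNA reads. They took 0.322 and 0.331% of the ChIP reads in the Ezh2KO libraries 10 and 9, against 0.407 and 0.485% in the Ezh2fl/fl libraries 33 and 7. Ezh2 RNA was at 169, 154 and 148 CPM (counts scaled to the total of the library) in Ezh2KO Th0 libraries, against 307, 295 and 312 CPM in Ezh2fl/fl Th0 libraries. In iTreg culture it was at 123, 118 and 48.7 CPM in Ezh2KO libraries and 251, 241 and 166 CPM in Ezh2fl/fl libraries. Genotypes did not overlap in either culture, although a gene-level count also includes any transcript that lacks the floxed exons. The log2 change of Ezh2 was -0.99 in Th0 (SE 0.30, edgeR adjusted p = 0.0618, and 0.000670 without iTreg Ezh2KO.165) and -1.18 in iTreg (SE 0.30, adjusted p = 0.0235, and 0.0781 to 0.0802 without Ezh2fl/fl.154 or Ezh2fl/fl.155). The iTreg library Ezh2KO.165 stood apart from its group: Tcf7 was at 2514 CPM there, against 98.3 and 71.3 CPM in Ezh2KO.150 and Ezh2KO.153. The iTreg library Ezh2fl/fl.177 did so less, with Tcf7 at 419 CPM, against 157 and 180 CPM in Ezh2fl/fl.154 and Ezh2fl/fl.155. The T cell markers Cd3e and Cd4 were at 138 CPM or more in every library. Of 10 T cell markers, 3 were lower in Ezh2KO Th0 cells, Cd4 (log2 change -0.88, adjusted p = 0.00171), Cd2 (-1.99) and Cd5 (-1.60), and their summed level was 2384 to 2762 CPM in Ezh2KO and 3776 to 3892 CPM in Ezh2fl/fl Th0 libraries. In iTreg cells the same 3 were lower and Cd3e and Cd3g were higher. Foxp3, the defining factor of regulatory T cells, was at 65.2 to 90.9 CPM in Ezh2KO iTreg libraries, against 850 to 979 CPM in Ezh2fl/fl iTreg libraries. Bulk RNA does not tell fewer cells that express a gene from less RNA per cell.

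Promoter windows of 5 of the genes are shown because they mark the ends of the range described below. Wnt1 and Gdf7 carried the most H3K27me3 of the 62 genes in control cells, Gdf11 and Bmp15 the least among those with reads enough for a test, and Wnt10b is the neighbour of Wnt1 whose RNA differed between genotypes. The sequences are RefSeq's for GRCm38.p6, the assembly behind mm10, and run 5′ to 3′ from 250 bases before to 50 after the gene start, 300 in all, with CG pairs in capitals.
Wnt1, chr15:98789607-98789906, plus strand: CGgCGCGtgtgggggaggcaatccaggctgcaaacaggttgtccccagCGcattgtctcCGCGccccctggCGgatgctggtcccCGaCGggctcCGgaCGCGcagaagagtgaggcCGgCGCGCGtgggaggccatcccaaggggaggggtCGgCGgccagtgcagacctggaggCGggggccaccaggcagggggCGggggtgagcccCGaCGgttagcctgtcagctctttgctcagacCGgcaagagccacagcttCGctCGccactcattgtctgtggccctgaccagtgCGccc
Gdf7, chr12:8301905-8302204, minus strand: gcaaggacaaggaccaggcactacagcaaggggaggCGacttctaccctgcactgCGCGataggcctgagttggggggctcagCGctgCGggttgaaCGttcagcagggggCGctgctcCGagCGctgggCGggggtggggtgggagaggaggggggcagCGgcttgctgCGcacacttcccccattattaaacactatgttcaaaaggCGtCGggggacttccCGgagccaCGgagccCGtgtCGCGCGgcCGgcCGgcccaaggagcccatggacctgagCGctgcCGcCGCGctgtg
Wnt10b, chr15:98778101-98778400, minus strand: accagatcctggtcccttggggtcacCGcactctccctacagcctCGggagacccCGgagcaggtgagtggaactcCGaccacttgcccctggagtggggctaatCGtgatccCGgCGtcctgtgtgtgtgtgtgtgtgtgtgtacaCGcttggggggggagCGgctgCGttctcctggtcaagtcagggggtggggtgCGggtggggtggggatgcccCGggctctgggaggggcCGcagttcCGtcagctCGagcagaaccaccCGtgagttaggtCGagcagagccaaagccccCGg
Gdf11, chr10:128891669-128891968, minus strand: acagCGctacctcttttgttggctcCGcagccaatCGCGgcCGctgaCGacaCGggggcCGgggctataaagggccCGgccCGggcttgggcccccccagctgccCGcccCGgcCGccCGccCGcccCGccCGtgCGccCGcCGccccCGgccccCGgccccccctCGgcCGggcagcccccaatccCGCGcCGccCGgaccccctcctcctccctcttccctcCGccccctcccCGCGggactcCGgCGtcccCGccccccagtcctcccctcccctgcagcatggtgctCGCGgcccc
Bmp15, chrX:6320675-6320974, minus strand: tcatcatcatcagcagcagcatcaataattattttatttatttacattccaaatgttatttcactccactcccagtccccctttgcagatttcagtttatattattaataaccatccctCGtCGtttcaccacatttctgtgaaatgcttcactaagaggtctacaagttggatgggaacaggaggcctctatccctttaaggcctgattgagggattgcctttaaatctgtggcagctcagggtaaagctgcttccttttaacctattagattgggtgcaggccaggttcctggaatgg

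The windows of Wnt1 and Gdf7 held 26 CG pairs each, that of Wnt10b 18, that of Gdf11 36 and that of Bmp15 2. RefSeq windows were available for 44 of the 62 genes. Their median was 22.5 CG pairs, against 14 over the 15802 promoters matched to any interval, and 79.5% of them held 10 or more, against 59.9% of all. Wnt promoters had a median of 31 CG pairs, Gdf promoters 24, Fgf promoters 13 and Bmp promoters 12. The number of CG pairs did not order the genes by the mark: Spearman's rho with H3K27me3 density in control cells was 0.10 across 36 of the genes whose intervals overlap no other, and -0.37 across all 12620 such genes. These are descriptions across genes, which share libraries and base composition. Gdf11, with the lowest control density of all that could be tested, had one of the windows richest in CG pairs, whereas Fgf11 and Fgf23 were among the most marked with 5 and 6 pairs. For Fgf2, Fgf9, Fgf10 and Fgf14 the RefSeq start lay over 1 kb inside the counted interval. For Fgf11 and Fgf12 it lay 423 and 848 bases before the interval, so their windows lie outside the region where the mark was counted.

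**Figure D1:**
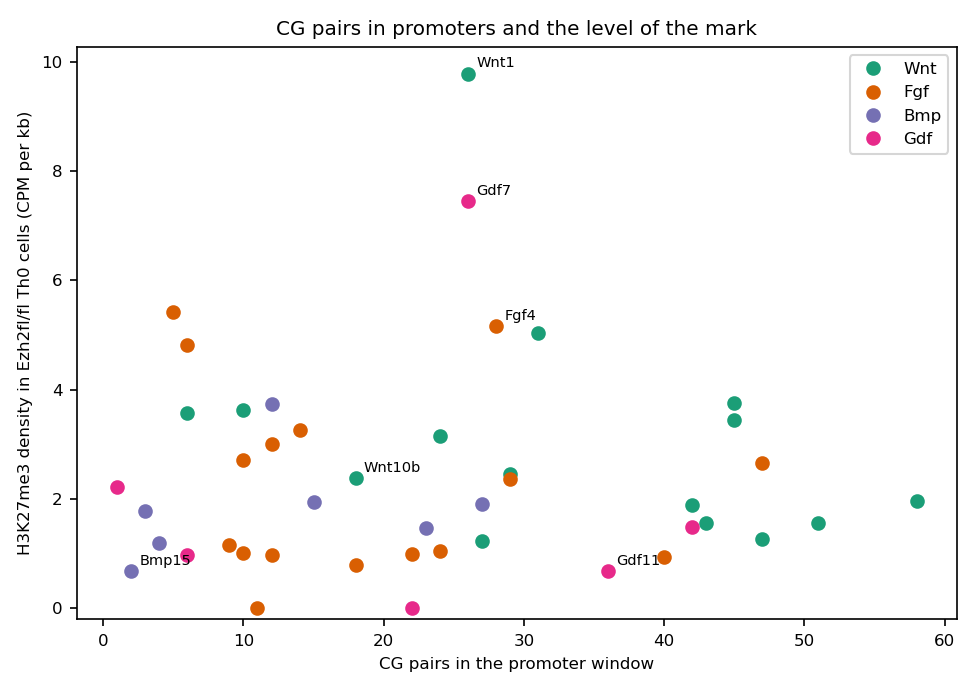
CG pairs in the promoter window (x axis, count in 300 bases) against H3K27me3 density in Ezh2fl/fl Th0 cells (y axis, CPM per kb, mean of 2 libraries) for the 44 genes with a RefSeq window, coloured by family. Wnt1 and Gdf7 lie at the top with 26 pairs each, and Gdf11 near the bottom with 36.

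In control Th0 cells most of these genes carried more H3K27me3 than the typical gene. The deposited ChIP values count reads over each whole gene, so levels are given as density, CPM per kb of the gene interval. The median over the 62 genes was 1.13 CPM per kb in Ezh2KO cells and 1.94 CPM per kb in Ezh2fl/fl cells. Over all intervals the median was 0.936 CPM per kb in Ezh2KO cells and 0.847 CPM per kb in Ezh2fl/fl cells, and reads spread evenly over all intervals would give 0.995. In Ezh2fl/fl cells 28 of the 62 genes (45.2%) were among the 10% of intervals with the highest density, and in Ezh2KO cells 10 of the 62 (16.1%) were among the highest 10% of that genotype. By family, the Ezh2fl/fl count was 11 of 19 Wnt, 12 of 22 Fgf, 2 of 11 Bmp and 3 of 10 Gdf genes.

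The highest value belonged to Wnt1, a ligand of midbrain and neural crest development. Its interval (chr15:98789857-98793837, mm10) had 1.15 and 1.49 CPM per kb in the Ezh2KO libraries 10 and 9, against 8.42 and 11.1 CPM per kb in the Ezh2fl/fl libraries 33 and 7. Both Ezh2KO libraries lay far below both control libraries, and only 19 of all intervals had a higher control density. Gdf7, a ligand of the roof plate of the neural tube, had 1.56 and 2.39 CPM per kb in Ezh2KO and 6.51 and 8.38 CPM per kb in Ezh2fl/fl cells. Fgf8, a signal of limb and midbrain organisers, had 1.44 and 1.69 CPM per kb in Ezh2KO and 5.66 and 7.41 CPM per kb in Ezh2fl/fl cells. In each of these genes the genotypes were separate.

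At the other end were genes whose genotypes overlapped or lay close together. Gdf11, a ligand that patterns the vertebral column, had 0.829 and 0.562 CPM per kb in Ezh2KO and 0.754 and 0.589 CPM per kb in Ezh2fl/fl cells, so the genotypes overlapped. Bmp15, an oocyte factor on the X chromosome, had 1.07 and 0.869 CPM per kb in Ezh2KO and 0.530 and 0.815 CPM per kb in Ezh2fl/fl cells (log2 change 0.53, adjusted p = 0.166, and 0.0210 without Ezh2fl/fl 7). Wnt2 was the least marked Wnt gene, with 1.21 and 1.23 CPM per kb in Ezh2KO and 1.27 and 1.19 CPM per kb in Ezh2fl/fl cells. Fgf1, Fgf7 and Gdf1 had 0 to 2 reads per library, and their intervals lie wholly or to 99.9% inside those of Arhgap26, Fam227b and Cers1. Of all intervals, 1293 held no read, and these 3 genes give no information on the mark. The other 7 genes whose intervals overlap another gene (Bmp4, Bmp8a, Bmp8b, Fgf2, Fgf13, Wnt5b and Wnt7b) overlapped it over at most 18.5% of their length.

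**Figure D2:**
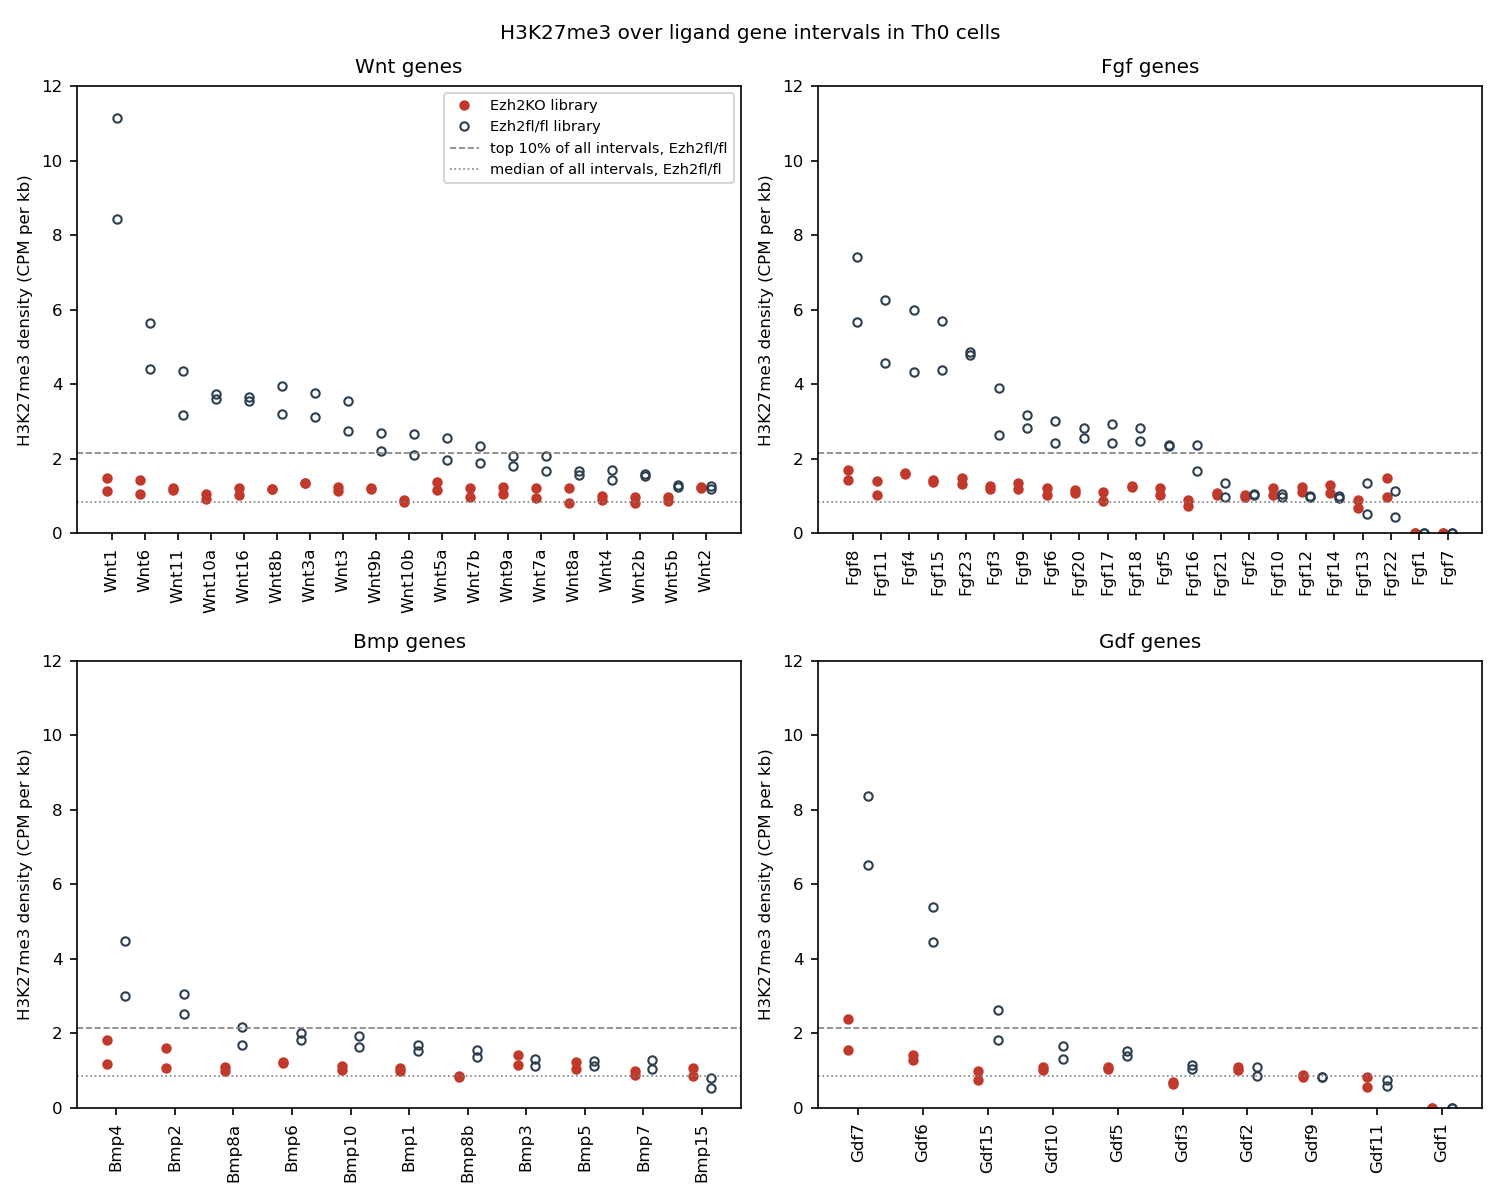
H3K27me3 density (y axis, CPM per kb of gene interval) of each gene (x axis, ordered by control density within its family) in the 2 Ezh2KO libraries (filled) and the 2 Ezh2fl/fl libraries (open) of Th0 cells. Dashed and dotted lines mark the top 10% and the median of all intervals in Ezh2fl/fl cells, and Ezh2KO points of nearly all genes lie between 0.5 and 2.4 CPM per kb whatever the control level.

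H3K27me3 was lower on most of these genes in Ezh2KO cells, where nearly all of them had a similar level. Of 59 genes with reads enough for a test, 40 were lower in Ezh2KO cells, 1 was higher and 18 did not pass the threshold (edgeR quasi-likelihood test, Benjamini-Hochberg adjusted p of 0.05 or less). Of all 20376 intervals tested, 20.6% were lower and 32.2% were higher, 52.9% in all. By family, 17 of 19 Wnt, 13 of 20 Fgf, 7 of 11 Bmp and 3 of 9 Gdf genes were lower. Of all 62 genes, 46 had both Ezh2KO libraries below both control libraries and 3 had both above, patterns seen in 29.3% and 44.8% of all intervals. The median log2 change of the 59 genes was -0.89, against 0.21 over all intervals tested. Scaling moved that background, with 6570 intervals higher and 4205 lower by library size, and 4956 higher and 5699 lower with TMM. All 40 genes stayed lower with TMM, with DESeq2's median-of-ratios factors and with the total of weakly marked intervals as the library size. Leaving out Ezh2KO 10 or Ezh2KO 9 left no interval of all genes past the threshold, and all 40 kept their direction. Those fits hold 1 Ezh2KO library, so only the direction is read from them. DESeq2, run with all 4 libraries, called 40 lower and 2 higher, where it called 22% of all intervals lower and 33% higher.

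Change and level went together, as they must where the control level enters both. The 5 largest falls were those of Wnt1 (log2 change -2.90, SE 0.26, adjusted p = 5.32e-05), Fgf11 (-2.16, SE 0.27, adjusted p = 0.000186), Fgf8 (-2.07, SE 0.24, adjusted p = 0.000130), Wnt6 (-2.01, SE 0.23, adjusted p = 0.000119) and Gdf7 (-1.92, SE 0.27, adjusted p = 0.000380). In Ezh2KO cells no gene of the 62 had a mean density above 1.98 CPM per kb, and the highest was Gdf7. The one rise was that of Fgf14, a channel-binding Fgf with the longest interval of the set at 699221 bases, which had 1.09 and 1.28 CPM per kb in Ezh2KO and 0.994 and 0.946 CPM per kb in Ezh2fl/fl cells. Its log2 change of 0.29 (adjusted p = 0.0307) was close to the median of all intervals. The call was lost with each of the 3 other scalings and whichever library was left out, with adjusted p up to 0.206.

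**Figure D3:**
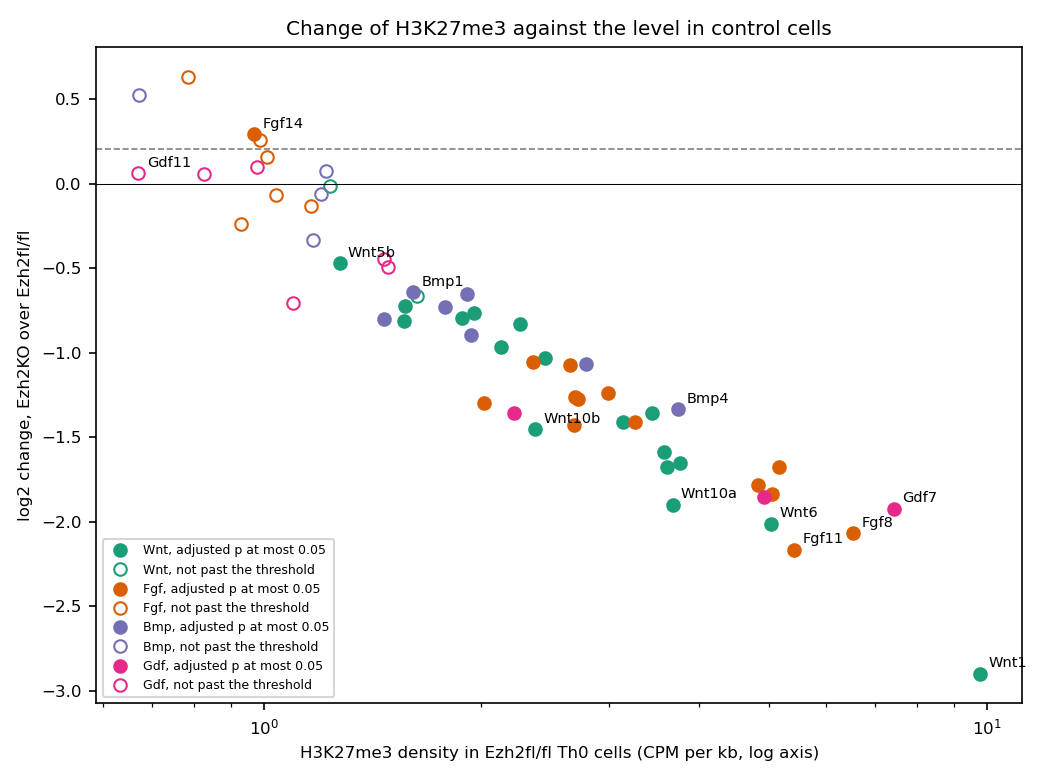
H3K27me3 density in Ezh2fl/fl Th0 cells (x axis, CPM per kb, log axis) against the log2 change, Ezh2KO over Ezh2fl/fl (y axis), for the 59 tested genes, coloured by family and filled where the adjusted p was at most 0.05. The dashed line is the median of all intervals, 0.21, and the control density is part of both axes, so the downward slope is partly built in; Wnt1 lies at the far end with -2.90.

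Among the Wnt genes, Wnt8a and Wnt2 were the members that did not pass the threshold, with adjusted p of 0.0621 and 0.961. Wnt6, a ligand expressed in epithelia, had 1.06 and 1.44 CPM per kb in Ezh2KO and 4.42 and 5.64 CPM per kb in Ezh2fl/fl cells. Its neighbour Wnt10a, which acts in teeth and hair follicles, had 0.925 and 1.05 CPM per kb in Ezh2KO and 3.61 and 3.75 CPM per kb in Ezh2fl/fl cells (log2 change -1.90, adjusted p = 0.000116). Wnt11, a ligand of the non-canonical branch, had 1.17 and 1.23 CPM per kb in Ezh2KO and 3.17 and 4.35 CPM per kb in Ezh2fl/fl cells (log2 change -1.65, adjusted p = 0.000178). In all 3 genes the genotypes were far apart. The smallest fall called among Wnt genes was that of Wnt5b, with 0.963 and 0.876 CPM per kb in Ezh2KO and 1.30 and 1.25 CPM per kb in Ezh2fl/fl cells (log2 change -0.47, adjusted p = 0.0117).

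Of the 22 Fgf genes, 12 were in the top 10% of control density, and several others were near 1 CPM per kb. The latter include Fgf2, Fgf10, Fgf12, Fgf13 and Fgf14, with intervals of 92859 to 699221 bases. A whole-gene density dilutes a mark over part of such a long gene, so these values cannot show that it is unmarked. After Fgf8, the most marked were Fgf11, Fgf4, an early embryonic ligand, and Fgf15, the gut hormone that restrains bile acid synthesis. Fgf11 had 1.02 and 1.41 CPM per kb in Ezh2KO and 4.56 and 6.26 CPM per kb in Ezh2fl/fl cells. Fgf4 had 1.60 and 1.63 CPM per kb in Ezh2KO and 4.33 and 5.98 CPM per kb in Ezh2fl/fl cells (log2 change -1.68, adjusted p = 0.000738), and Fgf15 had 1.44 and 1.38 CPM per kb in Ezh2KO and 4.39 and 5.69 CPM per kb in Ezh2fl/fl cells (-1.84, adjusted p = 0.000365). Genotypes were separate in these 3 genes. The hormone genes Fgf15, Fgf21 and Fgf23 did not share a level: Fgf23, the phosphate hormone, had 1.32 and 1.49 CPM per kb in Ezh2KO and 4.86 and 4.78 CPM per kb in Ezh2fl/fl cells, while Fgf21 had 1.09 and 1.02 CPM per kb in Ezh2KO and 1.36 and 0.965 CPM per kb in Ezh2fl/fl cells. Fgf12, Fgf13 and Fgf14, relatives of Fgf11 inside the cell, were near 1 CPM per kb in both genotypes. Fgf13 is on the X chromosome, and its 0.896 and 0.684 CPM per kb in Ezh2KO and 0.522 and 1.34 CPM per kb in Ezh2fl/fl libraries overlapped. The share of all ChIP reads on that chromosome was 4.16 and 3.36% in Ezh2KO 10 and 9, against 2.35 and 5.74% in Ezh2fl/fl 33 and 7, and its part in the values of Fgf13, Fgf16 and Bmp15 was not tested.

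Among Bmp and Gdf genes, 5 of 21 were in the top 10% of control density. Bmp4, a ligand of mesoderm and epidermis, had 1.17 and 1.82 CPM per kb in Ezh2KO and 3.00 and 4.48 CPM per kb in Ezh2fl/fl cells (log2 change -1.33, SE 0.29, adjusted p = 0.00397). Bmp2, a bone and heart ligand, had 1.08 and 1.60 CPM per kb in Ezh2KO and 2.52 and 3.07 CPM per kb in Ezh2fl/fl cells (-1.07, adjusted p = 0.00520). Neither gene overlapped between genotypes. Bmp8a and Bmp6 followed, at 1.04 ± 0.0654 and 1.22 ± 0.0120 CPM per kb in Ezh2KO and 1.94 ± 0.340 and 1.91 ± 0.128 CPM per kb in Ezh2fl/fl cells (SD, n = 2 each). Bmp1, the protease, fell by 0.64 on the log2 scale, with 1.07 and 0.989 CPM per kb in Ezh2KO and 1.68 and 1.54 CPM per kb in Ezh2fl/fl cells (adjusted p = 0.00859). After Gdf7, the marked Gdf genes were Gdf6, a ligand of joints and the eye, with 1.30 and 1.42 CPM per kb in Ezh2KO and 4.46 and 5.38 CPM per kb in Ezh2fl/fl cells (-1.85, adjusted p = 8.12e-05), and Gdf15, the stress hormone, with 0.756 and 0.997 CPM per kb in Ezh2KO and 1.82 and 2.63 CPM per kb in Ezh2fl/fl cells (-1.36, adjusted p = 0.00539). Both were separate between genotypes. Gdf10 was next, with 1.09 and 1.02 CPM per kb in Ezh2KO and 1.31 and 1.66 CPM per kb in Ezh2fl/fl cells, and did not pass the threshold (adjusted p = 0.112, and 0.00676 without Ezh2fl/fl 33).

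Several marked genes are neighbours. Within 100 kb of each other, with no other gene interval between them, lie 8 pairs made of 15 of the genes: Wnt6 and Wnt10a, Wnt3a and Wnt9a, Wnt9b and Wnt3, Gdf10 and Gdf2, Wnt10b and Wnt1, Fgf6 and Fgf23, Fgf3 and Fgf4, and Fgf4 and Fgf15. Some neighbours were close in level and others were not. Fgf4 and Fgf15 were at 1.61 and 1.41 CPM per kb in Ezh2KO and 5.16 and 5.04 CPM per kb in Ezh2fl/fl cells (means of 2 libraries). Wnt1 and Wnt10b are 11.7 kb apart on chromosome 15, and Wnt10b had 0.838 and 0.898 CPM per kb in Ezh2KO and 2.09 and 2.65 CPM per kb in Ezh2fl/fl cells, well under the control level of Wnt1. Gdf10 and Gdf2, 5.8 kb apart on chromosome 14, were at 1.06 and 1.05 CPM per kb in Ezh2KO and 1.49 and 0.979 CPM per kb in Ezh2fl/fl cells (means of 2 libraries), and neither passed the threshold. In the Fgf3, Fgf4 and Fgf15 cluster on chromosome 7 all 3 genes were lower in Ezh2KO cells, with Fgf3 at 1.19 and 1.27 CPM per kb in Ezh2KO and 2.63 and 3.90 CPM per kb in Ezh2fl/fl cells.

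A whole-gene density dilutes a mark that covers part of a long gene, and among these genes the median change was smaller in longer intervals. Among genes that overlap no other, the 22 under 10 kb had a median log2 change of -1.31 with 13 called lower, and the 24 of 10 to 50 kb had -1.07 with 21 called lower. Over all intervals tested, whatever their length, 20.6% were called lower, and that share was not taken for each length. The 6 of 50 kb or more (Bmp5, Bmp6, Bmp7, Fgf10, Fgf12 and Fgf14) had a median of 0.05, and Bmp6 was the one called lower. Density of the long genes was 1.17 CPM per kb in Ezh2KO and 1.09 CPM per kb in Ezh2fl/fl cells (medians), against 0.964 and 0.941 CPM per kb over all intervals of that length that overlap no other. For the genes under 10 kb it was 1.07 and 2.30 CPM per kb, against 1.09 and 1.13 CPM per kb over all such intervals. For those of 10 to 50 kb it was 1.19 and 2.55 CPM per kb, against 0.939 and 0.803 CPM per kb. The part that length plays in the calls was not tested.

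RNA of these genes was mostly absent or at the limit of detection, with or without Ezh2. No read was counted for 18 of the 62 genes in any of the 12 RNA libraries, and 48 had fewer than 10 reads in every library. Over all genes, 24.5% had no read and 42.1% had fewer than 10 in every library. A count of 0 allows up to 3 reads, 0.105 to 0.137 CPM at these depths, which covers counting error only. Of the 40 genes whose mark fell, 10 had no read anywhere and 31 stayed under 10 reads in every library. Wnt1 had 2, 0 and 0 reads in Ezh2KO Th0 libraries, against 0 in each Ezh2fl/fl Th0 library and in each iTreg library. Fgf3, Fgf4, Fgf8, Fgf15, Gdf6, Wnt3a, Wnt7a and Wnt9b had no read in any library, and Gdf7 had 1 read in all 12 together. Among the 22 genes whose mark was not called lower, 8 had no read anywhere.

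Only 11 genes reached the level at which RNA could be tested, and 9 of them lay outside the top 10% of the mark in control cells. Of all 62 genes 34 lay outside it. The 6 whose mark fell were Bmp1, Wnt10b, Wnt2b, Wnt4, Wnt5b and Wnt6, and the 5 others were Bmp7, Fgf2, Fgf10, Fgf13 and Gdf11. Per kb of exon, Fgf13 was the most abundant in every group, at 12.3 ± 0.636 CPM per exon kb in Ezh2KO Th0 and 12.8 ± 0.792 CPM per exon kb in Ezh2fl/fl Th0 cells (SD, n = 3 each). Gdf11 followed, at 2.79 ± 0.141 CPM per exon kb in Ezh2KO Th0 and 1.43 ± 0.489 CPM per exon kb in Ezh2fl/fl Th0 cells. Bmp7, a ligand of kidney and eye development, was at 2.28 ± 1.00 CPM per exon kb in Ezh2KO Th0 and 0.750 ± 0.0764 CPM per exon kb in Ezh2fl/fl Th0 cells. The other 8 were under 0.7 CPM per exon kb in both Th0 genotypes.

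**Figure D4:**
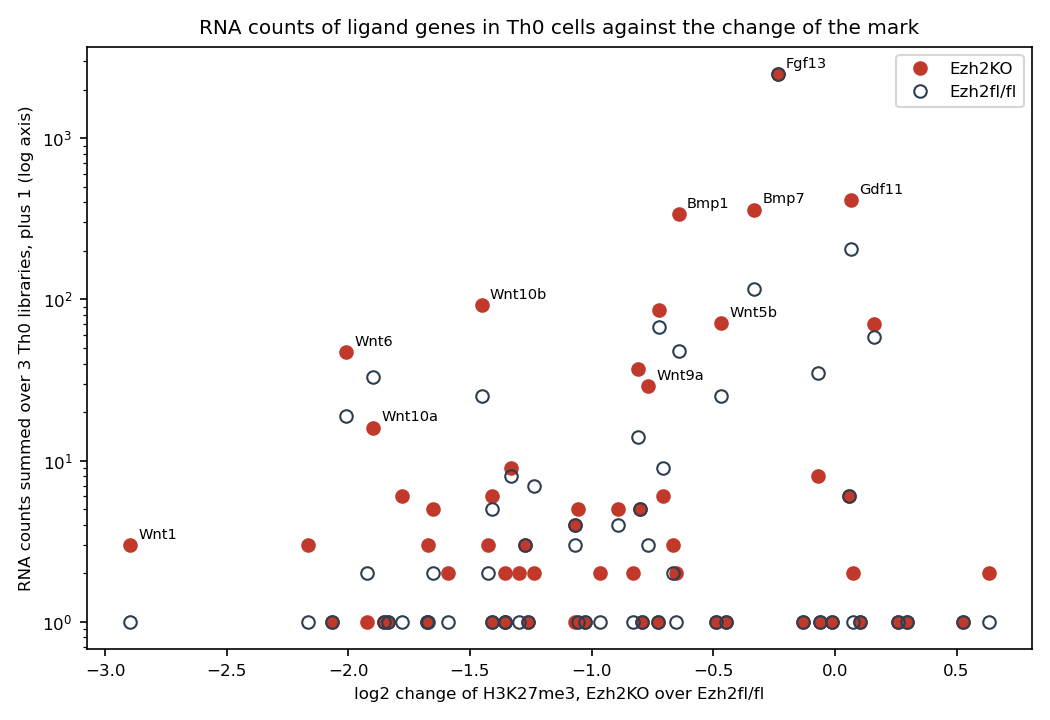
Log2 change of H3K27me3 (x axis) against RNA reads summed over the 3 Th0 libraries of a genotype plus 1 (y axis, log axis), for the 59 genes tested for the mark, with Ezh2KO filled and Ezh2fl/fl open. Wnt1, with the deepest fall, had 2 reads in Ezh2KO and 0 in Ezh2fl/fl cells, and Wnt6, also among the 5 deepest, had 46 and 18.

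In Th0 cells, 4 of the 11 tested genes had more RNA without Ezh2 and none passed the threshold as lower, where 8.74% of 12845 genes were higher and 3.22% lower. At an unadjusted p under 0.05, 6 were higher and 1, Fgf2, was lower, and DESeq2 called the same 4 higher and Fgf2 lower. The largest change was that of Bmp1, at 4.56, 4.38 and 3.59 CPM in Ezh2KO libraries, against 0.610, 0.519 and 0.687 CPM in Ezh2fl/fl libraries. The genotypes did not overlap, the log2 change was 2.74 (SE 0.34, adjusted p = 0.000782), and the call held whichever of the 12 libraries was left out. Wnt10b, a ligand that holds back fat cell formation and promotes bone, was at 0.966, 1.30 and 1.09 CPM (25, 35 and 31 reads) in Ezh2KO libraries and 0.244, 0.297 and 0.382 CPM (6, 8 and 10 reads) in Ezh2fl/fl libraries. It did not overlap either, and its log2 change was 1.81 (SE 0.36, adjusted p = 0.00966, and 0.0513 without Ezh2fl/fl.173).

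The other calls were smaller or rested on few reads. Gdf11 was at 4.87, 5.35 and 4.96 CPM in Ezh2KO and 1.83, 3.56 and 2.37 CPM in Ezh2fl/fl Th0 libraries, with no overlap and a log2 change of 0.93 (SE 0.23, adjusted p = 0.0234). The call was lost without Ezh2fl/fl.173 or Ezh2fl/fl.177 or any 1 of the 3 Ezh2KO libraries (adjusted p 0.0618 to 0.101). Wnt5b, a ligand of the non-canonical branch, was at 0.502, 1.04 and 1.02 CPM (13, 28 and 29 reads) in Ezh2KO and 0.285, 0.334 and 0.306 CPM (7, 9 and 8 reads) in Ezh2fl/fl libraries. Its log2 change was 1.43 (SE 0.35, adjusted p = 0.0235), lost without any 1 Ezh2fl/fl library or without Ezh2KO.174 or Ezh2KO.175 (0.0787 to 0.101). Fbxl14, the gene whose interval overlaps that of Wnt5b, was at 141, 127 and 126 CPM in Ezh2KO and 138, 145 and 143 CPM in Ezh2fl/fl libraries (log2 change -0.14, adjusted p = 0.496).

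Further genes separated by genotype in Th0 cells without passing the threshold. Bmp7 was at 6.57, 4.27 and 2.64 CPM in Ezh2KO and 1.30, 1.56 and 1.57 CPM in Ezh2fl/fl libraries (log2 change 1.57, SE 0.59, adjusted p = 0.133, and 0.0354 without iTreg Ezh2fl/fl.177). Wnt2b, a ligand related to Wnt2, was at 0.464, 0.409 and 0.457 CPM in Ezh2KO and 0.122, 0.185 and 0.191 CPM in Ezh2fl/fl libraries (1.35, SE 0.44, adjusted p = 0.0803, and 0.0199 to 0.0338 without iTreg Ezh2KO.153 or Ezh2KO.165). Neither gene overlapped between genotypes. Fgf2, a growth factor of fibroblasts and vessels, is named here after its values were seen: it had 3, 2 and 2 reads in Ezh2KO and 10, 13 and 11 reads in Ezh2fl/fl libraries (-2.31, SE 0.75, adjusted p = 0.0782, and 0.0167 to 0.0320 without iTreg Ezh2KO.153 or Ezh2KO.165). Its antisense neighbour Nudt6, whose interval overlaps its own, was at 5.55 ± 0.710 CPM in Ezh2KO and 7.95 ± 1.17 CPM in Ezh2fl/fl Th0 cells (SD, n = 3 each), and unless the counting used strand, which was not given in the sources used here, reads of the 2 genes cannot be told apart where they overlap. With the 6 Th0 libraries alone in the fit, Bmp7 and Wnt2b were also called higher and Fgf2 lower, 7 calls in all, in a fit that called 52.1% of all genes. The fit without iTreg Ezh2KO.165 called 27.1% of all genes in this comparison. Wnt9a and Wnt10a, both too low to test, are also named after their values were seen. Wnt9a had 25, 2 and 1 reads in Ezh2KO and 1, 1 and 0 reads in Ezh2fl/fl libraries, so a single library, Ezh2KO.165, carried its reads. Wnt10a, also untested, had 3, 5 and 7 reads in Ezh2KO and 8, 14 and 10 reads in Ezh2fl/fl libraries, with the mark lower in Ezh2KO cells.

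**Figure D5:**
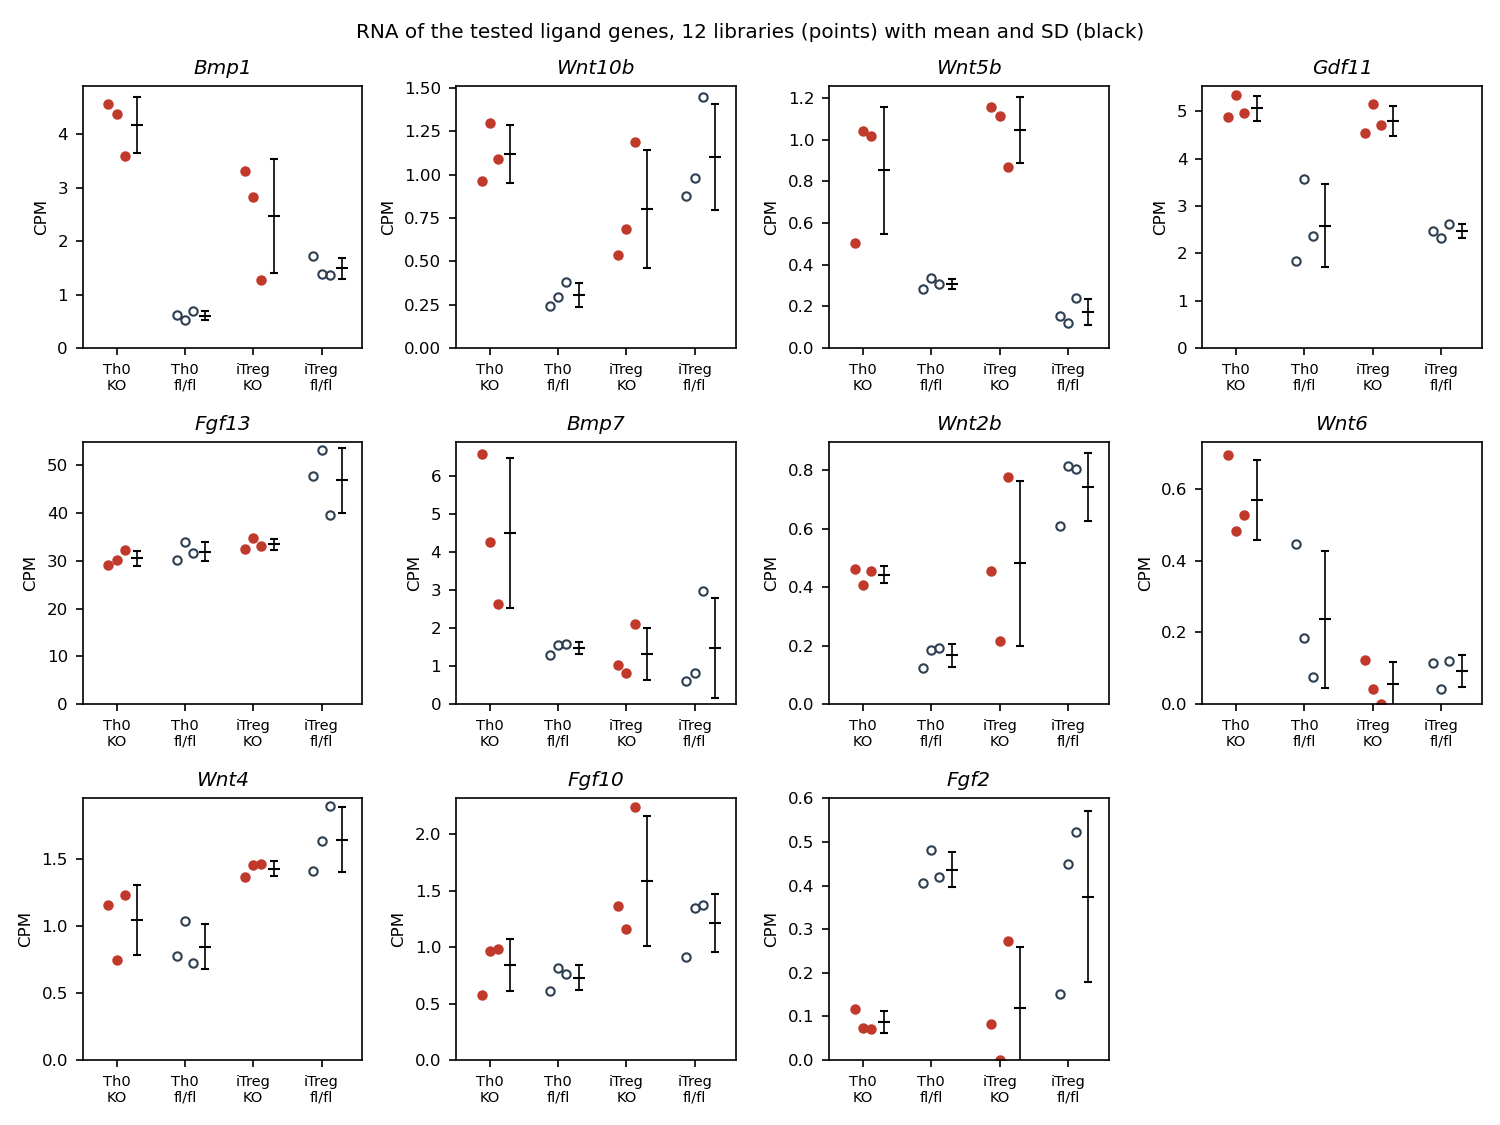
RNA level (y axis, CPM, each panel from 0 on its own scale) of the 11 tested genes in 12 libraries, Ezh2KO (filled) and Ezh2fl/fl (open), in Th0 and iTreg culture. Points are libraries and black bars the mean and SD of 3, and Bmp1 and Wnt10b are separate by genotype in Th0 but not in iTreg culture.

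In iTreg cells, Wnt5b and Gdf11 were higher and Fgf13 was lower without Ezh2, 3 of 11 genes, where 9.45% of all genes tested were higher and 7.26% lower. Wnt5b was at 1.16, 1.11 and 0.867 CPM (28, 26 and 19 reads) in Ezh2KO libraries, against 0.152, 0.122 and 0.242 CPM (4, 3 and 6 reads) in Ezh2fl/fl libraries. The genotypes were separate, and the log2 change of 2.58 (SE 0.37, adjusted p = 0.00115) kept its call whichever of the 12 libraries was left out. Gdf11 was at 4.54, 5.15 and 4.70 CPM in Ezh2KO and 2.48, 2.33 and 2.62 CPM in Ezh2fl/fl libraries, again with no overlap (0.96, SE 0.23, adjusted p = 0.0157, and 0.0506 to 0.0659 without Ezh2fl/fl.154 or Ezh2fl/fl.155). Fbxl14 had a log2 change of -0.06 in this culture (adjusted p = 0.789). Fgf13, which in neurons regulates sodium channels and microtubules, was at 32.5, 34.8 and 33.1 CPM in Ezh2KO and 47.8, 53.1 and 39.6 CPM in Ezh2fl/fl libraries (-0.48, SE 0.12, adjusted p = 0.0191, and 0.0604 to 0.0836 without Ezh2KO.150 or Ezh2fl/fl.154 or Ezh2fl/fl.155).

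Bmp1 and Wnt10b did not pass the threshold in iTreg cells. Bmp1 was at 3.30, 2.83 and 1.28 CPM in Ezh2KO and 1.71, 1.39 and 1.37 CPM in Ezh2fl/fl libraries (log2 change 0.73, adjusted p = 0.157). Ezh2KO.150 and Ezh2KO.153 lay above every Ezh2fl/fl library, and the library Ezh2KO.165, which stood apart, lay below them all. Without it Bmp1 was called higher (adjusted p = 0.00256), Fgf2 and Wnt2b were called lower (0.0160 and 0.0279), and the number of calls was 6, in a fit that called 44.2% of all genes, against 16.7% with all libraries. Fgf2 was at 0.0826, 0 and 0.274 CPM in Ezh2KO and 0.152, 0.449 and 0.524 CPM in Ezh2fl/fl libraries. With the 6 iTreg libraries alone in the fit, Wnt5b was the single call, and 4.34% of all genes were called. Fgf11 and Fgf18, both too low for the filter, are named here after their values were seen. Fgf11 had 4, 5 and 5 reads in Ezh2KO and 0, 0 and 1 reads in Ezh2fl/fl libraries, and Fgf18 had 0, 1 and 0 reads in Ezh2KO and 5, 6 and 4 reads in Ezh2fl/fl libraries.

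The genotype difference itself differed between cultures for Bmp1 and Wnt10b, where 2.86% of all genes tested had a negative and 1.63% a positive interaction past the threshold, 4.49% in all. The interaction was -2.01 for Bmp1 (log2, SE 0.45, adjusted p = 0.0359) and -2.26 for Wnt10b (SE 0.49, adjusted p = 0.0302). Wnt10b was at 0.537, 0.686 and 1.19 CPM in Ezh2KO and 0.876, 0.979 and 1.45 CPM in Ezh2fl/fl iTreg libraries, so its genotypes overlapped there. DESeq2 called the same interactions, with adjusted p of 0.00157 and 0.00246. Each was lost in 9 of 12 fits that left out 1 library, with adjusted p of 0.0607 to 0.106 for Bmp1 and 0.0567 to 0.0982 for Wnt10b. The fits that kept the call left out iTreg Ezh2KO.165, Ezh2fl/fl.177 or, for Bmp1, Ezh2KO.150 and, for Wnt10b, Ezh2fl/fl.154. Wnt2b had an interaction of -1.97 (SE 0.59, adjusted p = 0.104, and 0.00989 without iTreg Ezh2KO.165, a fit that called 19.6% of all genes).

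Markers of B cells also differed by genotype and culture. All 8 B cell markers on the list were higher in Ezh2KO Th0 cells, 5 of the 8 were lower in Ezh2KO iTreg cells, and 7 had a negative interaction. Their summed level was 92.9 to 216 CPM in Ezh2KO and 29.6 to 55.1 CPM in Ezh2fl/fl Th0 libraries, and 4.07 to 5.98 CPM in Ezh2KO and 12.8 to 13.9 CPM in Ezh2fl/fl iTreg libraries. The part of these markers in the RNA of Bmp1 and Wnt10b was not tested. Without Ezh2KO.165 of Th0, Bmp1 and Wnt10b were still called in Th0 cells and their interactions were not (edgeR adjusted p = 0.0928 and 0.0567). Both interactions were lost without any 1 of the 6 Th0 libraries, controls included, so that loss tells nothing about the B cell markers. Of 3 fibroblast markers with reads enough for a test, none passed the threshold in Th0 cells by edgeR or DESeq2 (1 at an unadjusted p under 0.05 by either), and Col3a1 and Dcn had no read in any library. In iTreg cells 1 of the 3, Col1a2, was lower (log2 change -3.79, adjusted p = 0.00183). Of tested markers of natural killer and gamma-delta T cells, 2 of 4 were higher in Ezh2KO Th0 and 3 of 4 in Ezh2KO iTreg cells, and of tested endothelial and epithelial markers 4 of 5 and 2 of 5 were. The natural killer marker Klrb1c lost its call in 3 (Th0) and 11 (iTreg) of 12 fits without 1 library. The epithelial markers Krt18 and Epcam lost theirs in 5 and 4 of 12 in Th0 cells. In Th0 cells 1 endothelial or epithelial marker was lower at an unadjusted p under 0.05 (edgeR). The summed level of that list was 53.1 to 60.6 CPM in Ezh2KO and 82.8 to 90.9 CPM in Ezh2fl/fl Th0 libraries. In iTreg libraries it was 343 to 545 CPM in Ezh2KO and 168 to 299 CPM in Ezh2fl/fl. Over all genes tested, 8.74% were higher in Th0 and 9.45% in iTreg cells.

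The cultures were compared within each genotype, on the same libraries as above. In Ezh2fl/fl cells 5 of 11 were higher in iTreg than in Th0 culture, with 19.9% of all genes tested higher and 11.5% lower. None of the 11 was lower, by edgeR at an unadjusted p under 0.05 or by DESeq2. Wnt2b was at 0.609, 0.816 and 0.806 CPM in iTreg and 0.122, 0.185 and 0.191 CPM in Th0 libraries (log2 change 2.06, SE 0.43, adjusted p = 0.00720). Wnt10b was at 0.876, 0.979 and 1.45 CPM in iTreg and 0.244, 0.297 and 0.382 CPM in Th0 libraries (1.75, SE 0.36, adjusted p = 0.00664). Both were separate by culture and held whichever library was left out. Bmp1 (1.23, adjusted p = 0.0217), Wnt4 (0.88, adjusted p = 0.0266) and Fgf13 (0.49, adjusted p = 0.0133) were also higher, each without overlap between cultures. Bmp1 lost its call without iTreg 154 or any 1 Th0 library (adjusted p 0.0538 to 0.0845), Fgf13 without iTreg 155 or Th0 173 or 177 (0.0509 to 0.0601), and Wnt4 without iTreg 155 or 177 or Th0 173 or 177 (0.0614 to 0.0989). Wnt4, a ligand of kidney and gonad development, was at 1.41, 1.63 and 1.89 CPM in iTreg and 0.773, 1.04 and 0.726 CPM in Th0 libraries.

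In Ezh2KO cells the one call was Wnt6, lower in iTreg culture, with 16.6% of all genes tested higher and 8.75% lower. It had 3, 1 and 0 reads in iTreg libraries, against 18, 13 and 15 reads in Th0 libraries (log2 change -3.23, SE 0.77, adjusted p = 0.0171, and 0.0515 to 0.0601 without Th0 Ezh2KO.165 or Ezh2KO.175). None was higher by edgeR or DESeq2, with 1, Fgf10, at an unadjusted p under 0.05. DESeq2 also called Bmp1 and Bmp7 lower. In Th0 cells Wnt6 had 11, 5 and 2 reads in Ezh2fl/fl libraries, below every Ezh2KO library, and its genotype difference did not pass the threshold (1.23, adjusted p = 0.274). Fgf10, a ligand of lung and limb buds, passed the threshold in no comparison: it was at 0.579, 0.966 and 0.984 CPM in Ezh2KO Th0, 0.610, 0.816 and 0.764 CPM in Ezh2fl/fl Th0, 1.36, 1.16 and 2.24 CPM in Ezh2KO iTreg and 0.914, 1.35 and 1.37 CPM in Ezh2fl/fl iTreg libraries. Days and cytokines differed together between cultures and cannot be told apart.

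Some receptors and downstream genes of these ligands differed by genotype. Lists for each pathway, written with earlier results of these data known, are described by their counts. Over all genes tested, edgeR called 8.74% higher and 3.22% lower in Th0 cells, and 9.45% higher and 7.26% lower in iTreg cells. DESeq2 called 11.7% higher and 6.7% lower in Th0 cells, and 12.6% higher and 10.5% lower in iTreg cells. A list with 1 call among 8 or 9 tested genes is near those shares. In Th0 cells 2 of 9 tested Wnt receptors and coreceptors were higher and none lower, also at an unadjusted p under 0.05 (edgeR), and DESeq2 called 4 higher and none lower. Fzd6, a Frizzled receptor, was at 1.70, 1.71 and 1.79 CPM in Ezh2KO and 0.244, 0.371 and 0.229 CPM in Ezh2fl/fl libraries (log2 change 2.57, SE 0.43, adjusted p = 0.00433), and Lgr4, a receptor for R-spondins, changed by 2.24 (adjusted p = 0.0127, and 0.0622 to 0.0664 without Ezh2fl/fl.173 or Ezh2fl/fl.177). The genotypes did not overlap in either gene. In iTreg cells 3 of 9 were higher: Ryk, a Wnt receptor of the tyrosine kinase type (29.9, 28.9 and 9.95 CPM in Ezh2KO, 7.31, 5.63 and 2.54 CPM in Ezh2fl/fl, log2 change 2.15, adjusted p = 0.00780), the coreceptor Lrp5 (1.29, adjusted p = 0.0107) and Fzd6 (1.63, adjusted p = 0.0171, and 0.0760 without Ezh2fl/fl.155). With the 6 iTreg libraries alone, none of the 3 kept its call.

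Downstream of Wnt, the 13 tested transducers gave no call in Th0 cells, none at an unadjusted p under 0.05 with edgeR or DESeq2. In iTreg cells Tcf7l1, a mostly repressive Tcf factor, was at 1.32, 0.643 and 1.37 CPM in Ezh2KO and 5.29, 6.44 and 8.78 CPM in Ezh2fl/fl libraries (log2 change -2.61, SE 0.33, adjusted p = 0.000616), and Pygo2, a nuclear partner of beta-catenin complexes, was lower too (-0.54, adjusted p = 0.00898). Ctnnb1, which encodes beta-catenin, was at 383 to 395 CPM in Ezh2KO and 413 to 418 CPM in Ezh2fl/fl Th0 libraries. Of 8 feedback targets of Wnt, Rnf43 was higher in Th0 cells (1.58, adjusted p = 0.0103, and 0.0533 without Ezh2fl/fl.176) and Znrf3 lower in iTreg cells (-0.73, adjusted p = 0.0445, lost in 11 of 12 fits without 1 library), both ubiquitin ligases that remove Frizzled receptors. Axin2, the usual readout of canonical signalling, was at 16.2 to 17.0 CPM in Ezh2KO and 17.2 to 18.6 CPM in Ezh2fl/fl Th0 libraries. Of 5 tested secretion factors and inhibitors, none passed in Th0 cells (edgeR gave 0 and DESeq2 1 at an unadjusted p under 0.05). Dkk3 was higher in iTreg cells (3.88, 2.19 and 4.79 CPM in Ezh2KO, 0.114, 0.245 and 0.846 CPM in Ezh2fl/fl, log2 change 3.17, adjusted p = 0.0195, and 0.0501 to 0.0867 without Ezh2KO.150, Ezh2fl/fl.154 or Ezh2fl/fl.155).

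None of the 3 tested Fgf receptors passed the threshold in either culture. Fgfrl1, an Fgf receptor without a kinase domain, had a log2 change of 1.14 in Th0 cells (adjusted p = 0.0643), which DESeq2 called. It was the 1 gene at an unadjusted p under 0.05 in Th0 cells, and Fgfr1 was the 1 in iTreg cells (2.46, adjusted p = 0.159, no call by DESeq2). Fgfr1 reached 23.1 CPM in iTreg Ezh2KO.165, against 1.90 and 1.59 CPM in Ezh2KO.150 and Ezh2KO.153. Of 9 feedback targets of Fgf signalling, Spry2 was higher and Etv1 lower in both cultures. Etv1, an Ets factor, was at 0.348, 0.260 and 0.422 CPM in Ezh2KO and 5.00, 4.19 and 4.62 CPM in Ezh2fl/fl Th0 libraries (log2 change -3.76, SE 0.58, adjusted p = 0.00290), and its log2 change in iTreg cells was -2.12 (adjusted p = 0.0164, and 0.0551 to 0.0557 without Ezh2fl/fl.154 or Ezh2fl/fl.155). Spry2, an inhibitor of receptor tyrosine kinase signalling, changed by 1.52 in Th0 cells (adjusted p = 0.0454) and 2.03 in iTreg cells (adjusted p = 0.0200), and lost its call in 8 and 4 of 12 fits without 1 library.

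Among 11 tested receptors and coreceptors for Bmp and Gdf ligands, 3 were higher in Th0 cells and none passed as lower (edgeR gave 1 lower at an unadjusted p under 0.05, and DESeq2 called 1). Bmpr1a, a type I receptor for Bmp2 and Bmp4, was at 27.0, 24.5 and 27.2 CPM in Ezh2KO and 6.63, 5.52 and 5.84 CPM in Ezh2fl/fl libraries (log2 change 2.1, SE 0.16, adjusted p = 7.99e-05). Acvr1, another type I receptor (1.13, adjusted p = 0.00236), and Bmpr2, the type II receptor (1.45, adjusted p = 0.0231, and 0.0544 to 0.0978 without any 1 of the 6 Th0 libraries), rose with it, and none of the 3 overlapped between genotypes. In iTreg cells 3 of 11 were higher and 5 lower, with Bmpr1a at 50.6, 49.0 and 42.9 CPM in Ezh2KO and 28.8, 26.0 and 18.9 CPM in Ezh2fl/fl libraries (0.96, adjusted p = 0.00226). The coreceptor Rgmb was at 1.94, 2.74 and 4.29 CPM in Ezh2KO and 12.8, 13.0 and 13.9 CPM in Ezh2fl/fl libraries (-2.14, SE 0.26, adjusted p = 0.000508), and Acvr1b, a type I receptor for activins, was also lower (-1.40, adjusted p = 0.00125). The other calls were Eng and Acvr1, higher, and Acvrl1, Acvr1c and Tgfbr1, lower.

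Further downstream, 3 of 9 Smad and Bmp target genes were higher in Th0 cells and none passed as lower (edgeR gave 1 lower at an unadjusted p under 0.05, and DESeq2 called 1). Id2, a target of Bmp signalling that other signals also induce in T cells, was at 832, 679 and 642 CPM in Ezh2KO and 86.0, 93.7 and 93.8 CPM in Ezh2fl/fl libraries (log2 change 2.94, SE 0.53, adjusted p = 0.00605). Bambi, a decoy receptor (2.06, adjusted p = 0.00239), and Id1 (3.48, adjusted p = 0.0240) rose as well, and Id1 lost its call without any 1 Th0 library other than Ezh2KO.174 (adjusted p 0.0654 to 0.105). In iTreg cells Id2 (2.40) and Smad1 (0.50) were higher and Smad5 (-0.77) was lower, with adjusted p of 0.0104, 0.0171 (0.0701 without Ezh2fl/fl.155) and 0.00670. Of 4 tested Bmp antagonists none passed in Th0 cells (edgeR gave 0 and DESeq2 1 at an unadjusted p under 0.05), and in iTreg cells Nbl1 was higher (2.73, adjusted p = 0.0275) and Twsg1 lower (-0.48, adjusted p = 0.0492), calls that were lost in 4 and 10 of 12 fits without 1 library. Among 4 other ligands of the TGF-beta family, Tgfb3 was higher in both cultures: it was at 50.0, 47.9 and 19.4 CPM in Ezh2KO and 5.22, 4.53 and 3.95 CPM in Ezh2fl/fl iTreg libraries (3.10, SE 0.43, adjusted p = 0.000962), and its log2 change in Th0 cells was 2.05 (adjusted p = 0.0197, and 0.0509 to 0.0906 without any 1 Th0 library other than Ezh2KO.165). Mstn, the muscle growth inhibitor, was lower in iTreg cells (-2.97, adjusted p = 0.0338, and 0.0663 to 0.0967 without any 1 iTreg library other than Ezh2KO.165).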

How the data were processed

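RNA and H3K27me3 ChIP DNA were sequenced in the samples described above. Per the submitters' processing notes, the authors used Trimmomatic 0.30, the aligners TopHat2 2.0.6 and Bowtie2 2.1.0, featureCounts 1.4.2 and the build mm10. The deposited values are raw counts per gene (RNA) or per whole gene interval (ChIP), and no input library was used here. Fgf1, Fgf7 and Gdf1, whose intervals lie wholly or nearly so inside another, held 0 to 2 ChIP reads per library. Reads in more than 1 interval thus seem not to have been counted for ChIP. The counting options for RNA were not given in the sources used here. Counts were tested with edgeR 4.0.16 in R 4.3.3 (robust quasi-likelihood F test, two-sided, filterByExpr with a minimum count of 10, Benjamini-Hochberg over all 12845 genes or 20376 intervals, threshold 0.05). RNA used TMM and all 12 libraries in 1 fit of 4 groups; ChIP was scaled by library size. DESeq2 1.42.0 was an alternative. Density is CPM per kb. The genes named by rule are those called in any RNA comparison or at 1 CPM or more, the most and least marked of each family, the 5 largest falls of the mark, and up to 3 called genes per pathway list and genotype comparison. Other genes are named as examples outside the rule. Among them, the RNA reads of Fgf2, Wnt9a, Wnt10a, Fgf11 and Fgf18 were picked with their values seen. The members, lists and alternatives were chosen with earlier results of these data known. Promoter sequences are RefSeq's.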

Additional observations from a re-analysis of the deposited data

Results flagged for a closer look

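The genotype difference of Bmp1 RNA in iTreg cells minus that in Th0 cells was -2.01 on the log2 scale, and that of Wnt10b was -2.26. Both differences between cultures passed the threshold of the interaction test (edgeR adjusted p = 0.0359 and 0.0302), and each was lost in 9 of 12 fits that left out 1 library.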

How the results depend on the processing

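No paired analysis was possible because the genotype groups share no library number and each pair of cultures shares only 1. Another normalization (DESeq2's median-of-ratios factors) left every RNA count as it was. With the 6 libraries of a culture alone, 7 genes were called by genotype in Th0 and 1 in iTreg cells, where those fits called 52.1% and 4.34% of all genes. Without iTreg Ezh2KO.165 and Ezh2fl/fl.177, the counts were 7 in Th0, 5 in iTreg, 4 for the interaction and 4 between cultures in Ezh2KO cells, with 51.6%, 57.1%, 41.2% and 57.6% of all genes called. Without Th0 and iTreg Ezh2KO.165 they were 6 in iTreg and 0 between cultures in Ezh2KO cells, with 41.6% and 19.3% of all genes called. Without a filter on low counts, 5 were called in iTreg (11.3% of all genes), and DESeq2 called 3 between cultures in Ezh2KO cells (37.9% of all genes). Leaving out 1 library gave 1 to 6 calls in Th0, 1 to 6 in iTreg, 0 to 3 for the interaction, 2 to 5 between cultures in Ezh2fl/fl cells, 0 to 2 in Ezh2KO cells and 0 to 44 for H3K27me3. The median density was 1.04 (TMM) and 1.20 (background total) CPM per kb in Ezh2KO cells, and 2.20 (background total), 2.24 (overlapping intervals left out) and 2.22 (intervals over 100 kb left out) CPM per kb in Ezh2fl/fl cells. Single libraries gave 1.06 and 1.10 CPM per kb in Ezh2KO and 1.82 and 2.13 CPM per kb in Ezh2fl/fl cells. Direction changed for 3 differences that had not passed the threshold. Bmp7 in iTreg cells ran from -0.655 to 0.876 when 1 library was left out, becoming 0.0925 (log2) without Ezh2KO.153, 0.876 without Ezh2fl/fl.177 and 0.378 without Ezh2KO.165 and Ezh2fl/fl.177. Wnt6 in iTreg cells became 0.0892 without the last pair. Wnt2 H3K27me3 ran from -0.0583 to 0.0353, becoming 0.0353 without Ezh2fl/fl 33 and 0.000263 without Ezh2KO 10. The causes were not tested. Few reads limit the RNA of these genes, and 2 ChIP libraries per genotype limit the mark.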
